A study of Rattus norvegicus with 4 samples.

Results

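The genes described here are the receptors of the EGF family (Egfr, Erbb2, Erbb3 and Erbb4), 5 of their ligands (Hbegf, Areg, Ereg, Tgfa and Btc) and the receptor inhibitor Errfi1. They were taken as every probe set of the array whose platform annotation gives exactly 1 gene symbol from these 10 names. This gave 13 probe sets of 31042 on the array (array controls left out), with at least 1 for each of the 10 genes, 3 for Egfr and 2 for Tgfa. Expression was measured in neurospheres, clusters that dissociated retinal cells form when they grow in suspension, from Sprague Dawley rat embryos at embryonic day 18. In 1 group the cells grew with epidermal growth factor (EGF) and endothelial cell conditioned medium, which had been exposed to the cell type lining the vessels (EGF+ECCM, 2 arrays), and in the other with EGF alone (2 arrays). All 4 samples therefore received EGF. The retinal cells came from pools of embryos (10 embryos, per the series description), and a further pool served as the replicate for both conditions. The endothelial cell source, the EGF dose and the time in culture are not given in the sources used here.

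EGF family ligands are made as membrane-anchored precursors that proteases cut from the cell surface. A freed ligand joins receptor molecules into pairs, which phosphorylate each other and signal through Ras, Raf, MEK and ERK kinases. Egfr binds EGF, amphiregulin and TGF-alpha, while Erbb2 has no known ligand and acts as a partner of the other receptors. Errfi1, also called Mig6, is induced by the signal and blocks the receptors' kinase domains. EGF is widely used to keep retinal progenitors dividing in neurosphere culture.

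With conditioned medium the receptors Egfr and Erbb2 and the inhibitor Errfi1 rose, each by a probe set at 1.55-fold to 1.78-fold, while none of the 5 ligand genes passed the test. Egfr rose by only 1 of its 3 probe sets. A probe set was called when limma gave a Benjamini-Hochberg adjusted p under 0.05 in the same direction on quantile normalized, deposited and median-centred values. By this rule 3 of 13 probe sets were higher and 0 lower. Over all 31042 probe sets, 4.92% were higher and 0.986% lower (1527 and 306). The share of the 13 that was higher was 23.1%, and its distance from that background was not tested. The genes were chosen with earlier results of these data known. The 0 falls of 13 cannot be told from 0.986%. With the replicate number as a block, 1429 of all probe sets were higher and 45 lower, and the same 3 of the 13 were higher. At an unadjusted p under 0.05 under all 3 scalings, 3 of the 13 were higher and 0 lower, against 8.58% and 1.43% of all probe sets. The 3 called probe sets all belong to the 8 that were not dim, and of all probe sets that were not dim 6.38% were higher and 1.40% lower. Dim means a mean over the 4 arrays below 4.76 log2, the limit of the lowest 30% of probe sets. The median difference was 0.29 log2 over the 13 probe sets and -0.01 log2 over all probe sets.

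The deposited values were not equalised between arrays. The array medians were 6.84 and 6.56 log2 with conditioned medium, against 6.03 and 6.25 log2 with EGF alone, and the median difference of all probe sets was 0.48 log2 as deposited and -0.09 log2 after median centring. Quantile normalization alone called 2544 probe sets higher and 2535 lower (8.20% and 8.17%), and among the 13 it called 3 and 0. The deposited values alone called 9688 and 307 (31.2% and 0.989%), and 6 and 0 of the 13. The median-centred values alone called 1943 and 5213 (6.26% and 16.8%), and 3 and 0 of the 13. All levels and differences below are quantile normalized log2 values unless named otherwise. The 3'-to-5' gap of control probe sets is a measure that grows with RNA breakdown. For actin it stood at 1.54 and 1.37 log2 with conditioned medium and 1.99 and 2.08 log2 with EGF alone. For GAPDH it stood at 0.19 and 0.18 log2 with conditioned medium and 0.31 and 0.30 log2 with EGF alone. Both gaps differ with the condition and cannot be told apart from it, and their part in the results was not tested. Each cell type marker named next is the brightest probe set of its gene. Over all 14217 genes taken so, 6.59% were higher and 1.35% lower. At an unadjusted p under 0.05 under all 3 scalings, 10.3% of them were higher and 1.90% lower. Of the 7 retinal progenitor markers with a probe set none was dim, and their mean level was 10.96 and 10.89 log2 with conditioned medium and 10.66 and 10.74 log2 with EGF alone. Markers of other cells moved with the condition: 4 of 8 microglia markers rose (mean level 5.68 and 5.71 log2 with conditioned medium, 4.93 and 5.03 log2 with EGF alone), as did 4 of 9 mesenchymal and pericyte markers (6.21 and 6.28 log2, against 5.30 and 5.19 log2), while 5 of 7 photoreceptor markers fell (8.52 and 8.54 log2, against 10.07 and 9.93 log2), as did 4 of 6 retinal neuron markers (9.19 and 9.27 log2, against 9.97 and 9.95 log2). These counts moved with the fit: of the retinal neuron markers 0 fell with the replicate number as a block and 0 without the intensity trend. With dim probe sets left out and 1 probe set per gene, 3 microglia markers were higher with all 4 arrays, against 1 without EGF+ECCM replicate 1, 0 without EGF+ECCM replicate 2, 2 without EGF replicate 1 and 3 without EGF replicate 2. In the same fits 4 retinal neuron markers were lower with all arrays, against 2, 0, 1 and 0 with the arrays left out in that order, and 6 mesenchymal and pericyte markers were higher, against 3, 3, 5 and 3. Of the progenitor markers 2 rose, of 6 Muller and astroglia markers 2, of 6 epithelial and lens markers 1 and of 6 Schwann and oligodendrocyte markers 0, and none of these fell. Of 7 endothelial markers 3 were dim and 0 passed (2 higher and 0 lower at an unadjusted limma p under 0.05). The part of these cell types in the results below was not tested. In these bulk samples more cells of a type and more RNA per cell cannot be told apart.

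The promoters of the 3 genes with a probe set that rose are shown so that the genes that changed together can be compared. Sequences are from RefSeq, build GRCr8, from 250 bases before to 50 bases after the annotated start, written 5' to 3' on the strand of the gene. Such an entry was found for 8 of the 10 genes. Capitals mark matches, on either strand, to any of 5 motifs searched: the AP-1 site TGANTCA, the cyclic AMP response element TGACGTCA, the TEAD site GGAATG, the GC box GGGCGG and the TATA box TATAAA.
Egfr, chr14:95378376-95378675, strand +: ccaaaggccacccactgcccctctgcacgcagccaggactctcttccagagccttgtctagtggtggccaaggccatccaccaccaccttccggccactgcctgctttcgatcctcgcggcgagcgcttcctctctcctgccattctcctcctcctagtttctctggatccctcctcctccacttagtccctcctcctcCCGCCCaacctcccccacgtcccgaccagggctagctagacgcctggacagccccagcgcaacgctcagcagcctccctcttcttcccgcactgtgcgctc
Erbb2, chr10:83907351-83907650, strand +: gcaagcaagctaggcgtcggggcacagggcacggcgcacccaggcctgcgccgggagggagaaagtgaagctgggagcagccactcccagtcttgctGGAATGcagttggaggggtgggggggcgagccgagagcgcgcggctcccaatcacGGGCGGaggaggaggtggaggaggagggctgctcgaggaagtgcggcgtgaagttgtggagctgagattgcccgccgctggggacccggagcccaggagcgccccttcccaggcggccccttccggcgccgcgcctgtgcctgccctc
Errfi1, chr5:166606591-166606890, strand +: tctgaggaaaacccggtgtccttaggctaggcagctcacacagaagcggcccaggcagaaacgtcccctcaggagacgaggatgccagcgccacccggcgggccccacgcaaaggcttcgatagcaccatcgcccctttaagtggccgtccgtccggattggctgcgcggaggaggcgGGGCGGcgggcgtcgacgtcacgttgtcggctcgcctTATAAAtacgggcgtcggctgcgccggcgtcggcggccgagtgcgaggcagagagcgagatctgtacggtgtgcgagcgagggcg
All 3 hold 1 GC box, which starts 51 bases before the annotated start in Egfr, 98 in Erbb2 and 72 in Errfi1. The TATA box lies 35 bases before the start in Errfi1 and was not matched in the windows of Egfr and Erbb2. Erbb2 alone among the 8 holds the TEAD letters, at 153 bases before its start. Over the 8 promoters, 7 held a GC box, 2 a TATA box, 1 the cyclic AMP response element (Areg) and 0 the AP-1 letters. Over all 33469 promoters of the table, 33.1% held the GC box, 14.2% the TATA box, 14.2% the TEAD site, 7.33% the AP-1 site and 1.83% the cyclic AMP response element. The GC content of the 8 promoters ran between 56.0% and 76.7%, and its median over all promoters was 51.7%. These matches describe the letters of the windows and were not tested for use by any factor.

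Egfr, the receptor for the EGF in the medium, was measured by 3 probe sets. Probe set 1370830_at read 7.97 and 8.30 log2 with conditioned medium, against 7.55 and 7.05 log2 with EGF alone. Both conditioned-medium arrays lie above both EGF arrays, and the EGF arrays are the more spread pair. The group means were 8.13 ± 0.23 log2 with conditioned medium and 7.30 ± 0.35 log2 with EGF alone (SD, n = 2 each). The difference was 0.83 ± 0.18 log2 (SE, limma adjusted p = 0.00929), or 1.78-fold, and it was 1.25 log2 as deposited and 0.69 log2 after median centring. The brightest Egfr probe set, 1381145_at, read 8.74 and 8.94 log2 with conditioned medium, against 8.51 and 8.55 log2 with EGF alone. The groups do not overlap there either, but the difference was 0.31 ± 0.10 log2 (SE, limma adjusted p = 0.0632), with a 95% interval of 0.08 to 0.53 log2, and it did not pass. The third probe set, 1385413_at, was dim, read 4.04 and 3.86 log2 with conditioned medium and 4.08 and 3.90 log2 with EGF alone, and its groups overlap.

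The Egfr probe sets thus differ in the size of their change. In each array, 1381145_at read above 1370830_at by 0.78 and 0.64 log2 with conditioned medium and by 0.96 and 1.50 log2 with EGF alone. The gap was narrower in both conditioned-medium arrays, and this difference between probe sets was not tested. When each gene was represented by its brightest probe set, Egfr was therefore not called.

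Erbb2, the ligandless partner receptor, had 1 probe set, which read 7.57 and 7.70 log2 with conditioned medium, against 6.94 and 6.92 log2 with EGF alone. The replicates lie close together in both groups and the groups do not overlap. The means were 7.64 ± 0.09 log2 with conditioned medium and 6.93 ± 0.02 log2 with EGF alone (SD, n = 2 each), a difference of 0.71 ± 0.14 log2 (SE, limma adjusted p = 0.00608) or 1.64-fold. It was 1.17 log2 as deposited and 0.61 log2 after median centring. Erbb3, whose kinase is nearly inactive and which binds neuregulins, read 4.43 and 4.62 log2 with conditioned medium and 4.34 and 4.74 log2 with EGF alone, with overlapping groups. Erbb4, a neuregulin receptor with an active kinase, read 3.64 and 3.22 log2 with conditioned medium and 2.75 and 3.52 log2 with EGF alone, also with overlap. Both probe sets were dim. The 95% intervals of their quantile normalized differences were -0.60 to 0.56 log2 for Erbb3 and -0.29 to 0.88 log2 for Erbb4. Only the Erbb4 interval holds the 0.71 log2 of Erbb2. As deposited, Erbb3 differed by 0.76 ± 0.40 log2 (SE), beside 1.17 log2 for Erbb2 and a shift of 0.48 log2 in all probe sets. After median centring it differed by 0.20 ± 0.28 log2 (SE), beside 0.61 log2 for Erbb2. A change like that of Erbb2 is therefore not excluded for Erbb3.

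**Figure D1:**
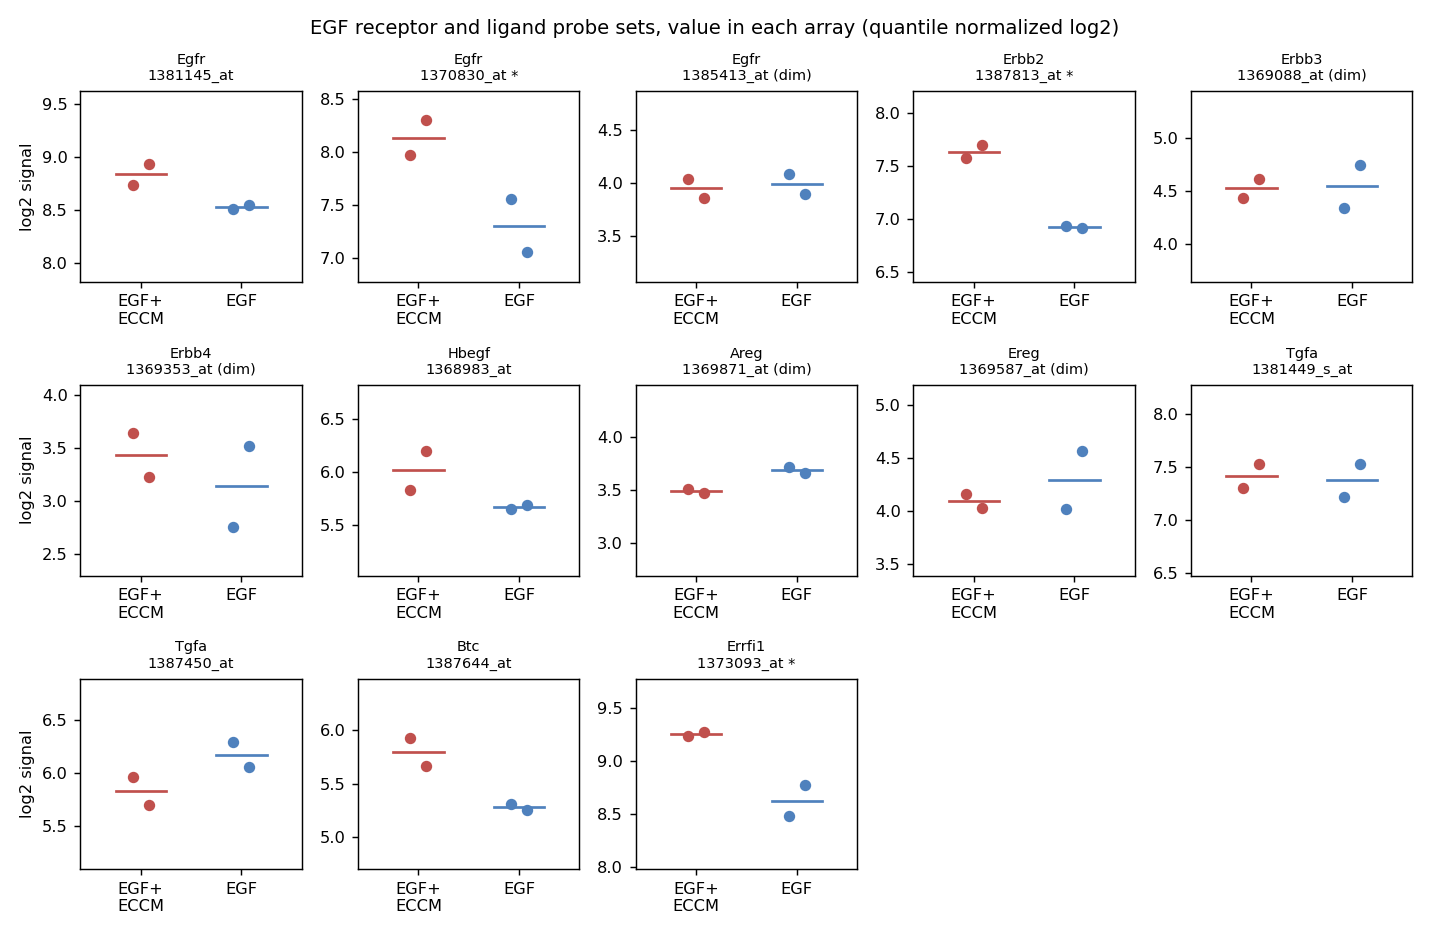
Quantile normalized log2 signal of each of the 13 probe sets in each array, with conditioned medium on the left (red) and EGF alone on the right (blue). Each point is 1 array, the line is the group mean, every panel spans the same log2 range, and an asterisk marks the 3 probe sets called under all 3 scalings. The called Egfr, Erbb2 and Errfi1 panels show no overlap between groups.

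Among the ligands, betacellulin and HB-EGF had the higher readings with conditioned medium and neither passed. Btc, betacellulin, a ligand of Egfr and Erbb4, read 5.93 and 5.67 log2 with conditioned medium, against 5.30 and 5.25 log2 with EGF alone. Its groups do not overlap, and the difference was 0.52 ± 0.24 log2 (SE, limma adjusted p = 0.185), with a 95% interval of -0.02 to 1.06 log2. Hbegf, heparin-binding EGF-like growth factor, also a ligand of Egfr and Erbb4, read 5.83 and 6.19 log2 with conditioned medium, against 5.65 and 5.69 log2 with EGF alone. Its groups do not overlap, and the difference was 0.34 ± 0.23 log2 (SE, limma adjusted p = 0.371). Without any scaling both passed, at 1.24 log2 for Btc (limma adjusted p = 0.00784) and 1.01 log2 for Hbegf (limma adjusted p = 0.0222), beside the 0.48 log2 shift of all probe sets on that scale.

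Tgfa, TGF-alpha, a ligand of Egfr, had 2 probe sets that differ in sign. The brighter one, 1381449_s_at, read 7.30 and 7.52 log2 with conditioned medium and 7.22 and 7.53 log2 with EGF alone, with overlap and a 95% interval of -0.31 to 0.39 log2. The other, 1387450_at, read 5.97 and 5.70 log2 with conditioned medium and 6.29 and 6.06 log2 with EGF alone. Both conditioned-medium arrays lie below both EGF arrays there, at -0.34 ± 0.23 log2 (SE, limma adjusted p = 0.349), and as deposited the difference was 0.27 log2 with overlapping groups.

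Areg and Ereg, amphiregulin and epiregulin, were dim. Areg read 3.51 and 3.47 log2 with conditioned medium and 3.71 and 3.66 log2 with EGF alone, a difference of -0.20 ± 0.20 log2 (SE, limma adjusted p = 0.555). Its groups do not overlap, but as deposited the difference had the opposite sign, 0.36 log2. Ereg read 4.16 and 4.03 log2 with conditioned medium and 4.02 and 4.57 log2 with EGF alone, with overlapping groups. In all, 6 of the 13 probe sets had every conditioned-medium array above every EGF array and 2 had them below, and over all probe sets these shares were 27.0% and 29.4%. As deposited, 10 of the 13 were above and 0 below, against 69.4% and 3.50% of all probe sets.

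Errfi1, the induced receptor inhibitor, had 1 probe set, which read 9.23 and 9.28 log2 with conditioned medium, against 8.48 and 8.77 log2 with EGF alone. The conditioned-medium arrays nearly coincide and both exceed the EGF arrays. The means were 9.25 ± 0.03 log2 with conditioned medium and 8.63 ± 0.21 log2 with EGF alone (SD, n = 2 each). The difference was 0.63 ± 0.11 log2 (SE, limma adjusted p = 0.00273), or 1.55-fold, and it was 0.97 log2 as deposited and 0.41 log2 after median centring. It had the smallest p of the 13 probe sets on quantile normalized values.

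**Figure D2:**
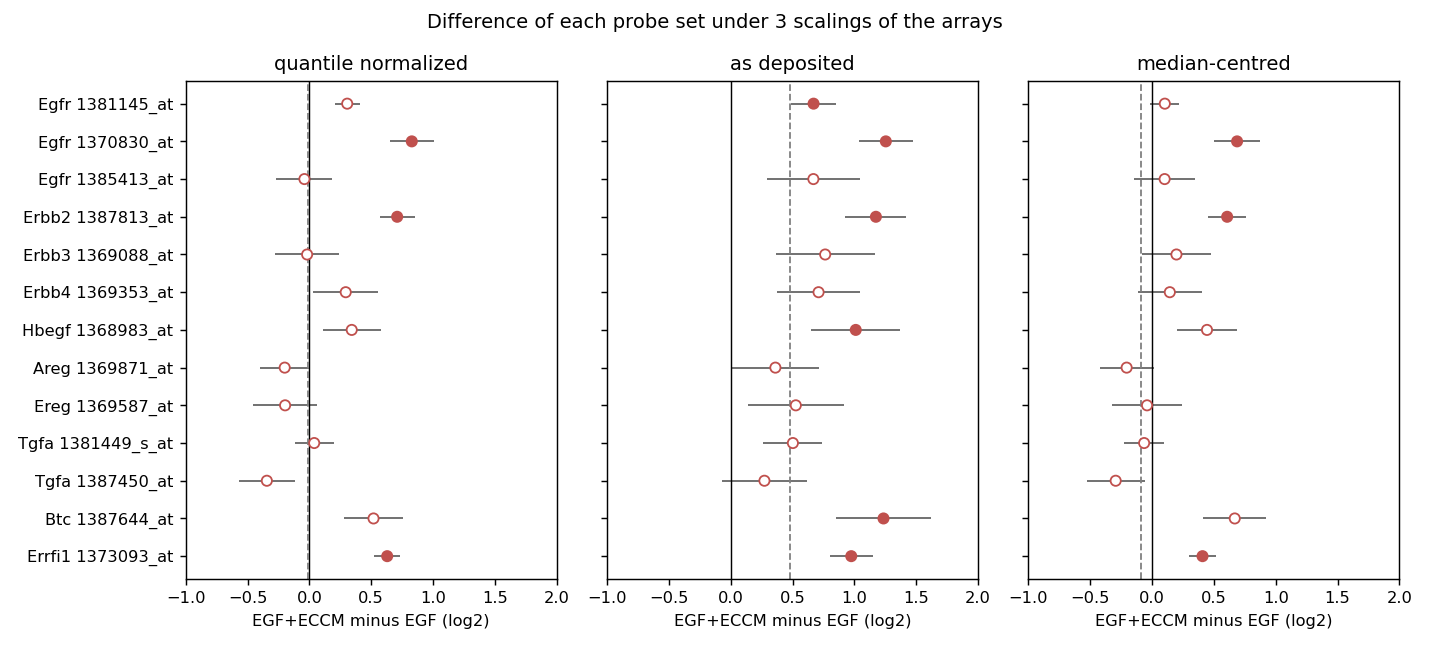
Difference between conditioned medium and EGF alone for each of the 13 probe sets (log2, bars are limma's standard error) under the 3 scalings of the arrays. Filled points have an adjusted p under 0.05 on that scale, and the dashed line is the median difference of all probe sets (-0.01, 0.48 and -0.09 log2 from left to right). Egfr 1370830_at, Erbb2 and Errfi1 are filled in all 3 panels, and Egfr 1381145_at, Btc and Hbegf only in the deposited values.

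The 3 calls depended on the intensity trend, by which limma pools the spread over probe sets of like brightness. Without it the largest adjusted p over the 3 scalings was 0.0634 for Erbb2, 0.144 for Errfi1 and 0.145 for Egfr 1370830_at, so 0 of 13 passed, where 1.80% of all probe sets were called higher and 0.296% lower. At an unadjusted p under 0.05 without the trend, 4 of the 13 were higher and 0 lower, against 8.62% and 0.792% of all probe sets. Leaving out an array moved the difference of Egfr 1370830_at between 0.57 and 1.06 log2, that of Erbb2 between 0.65 and 0.79 log2 and that of Errfi1 between 0.47 and 0.77 log2, all with the same sign and none passing. In a fit with 3 arrays the replicate spread comes from the condition that keeps both arrays, and the lone array is assumed to vary like them. Fits with 3 arrays, dim probe sets left out and 1 probe set per gene kept the scaling made on all 4 arrays. Their dim limit and brightest probe sets also came from all 4, so the left-out array still shaped them. The other fits with 3 arrays kept all probe sets and were scaled anew on those 3. In those fits with 3 arrays 0 of 31042 probe sets were called (1735 to 2497 higher and 159 to 460 lower at an unadjusted p under 0.05). With dim probe sets left out and 1 probe set per gene, fits with 3 arrays called 547 to 904 genes higher. There the adjusted p of Erbb2 passed the threshold in 3 of the 4 such fits and missed it without EGF+ECCM replicate 2 (0.65 log2, limma adjusted p = 0.0589), and that of Errfi1 missed it without EGF replicate 1 (0.48 log2, 0.0928), EGF+ECCM replicate 1 (0.65 log2, 0.0535) or EGF+ECCM replicate 2 (0.61 log2, 0.0903).

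**Figure D3:**
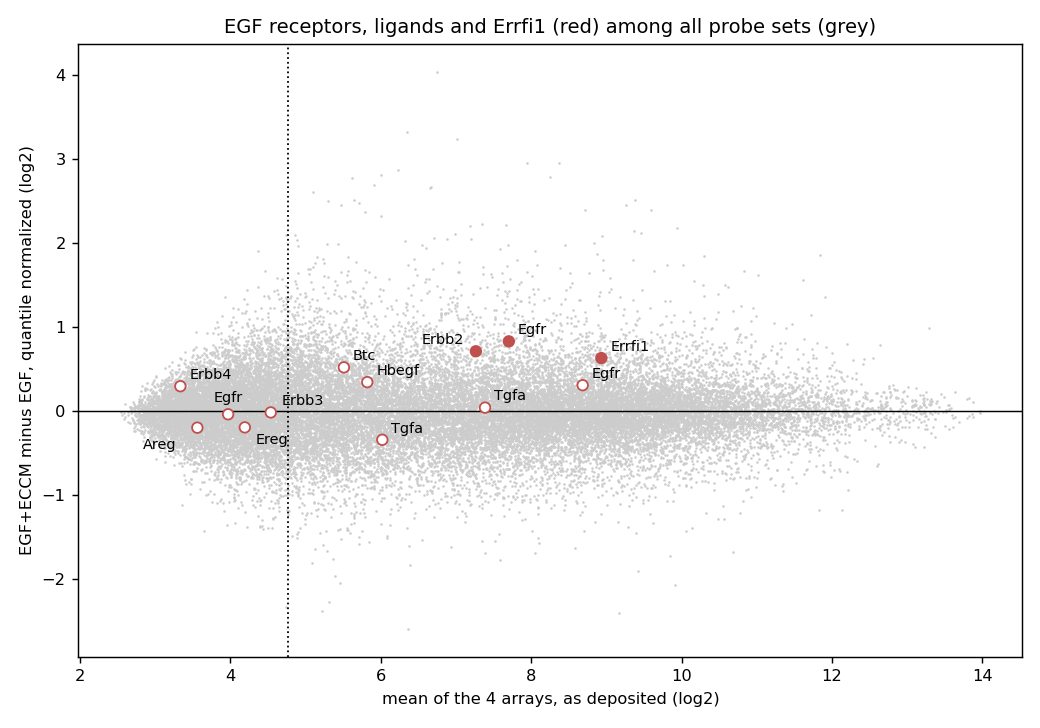
Mean level of the 4 arrays as deposited (log2, horizontal) against the quantile normalized difference between conditioned medium and EGF alone (log2, vertical) for all 31042 probe sets (grey) and the 13 probe sets described here (red, filled where called). The dotted line is the 4.76 log2 limit for dim probe sets, left of which 5 of the 13 lie, and the 3 called probe sets lie in the brighter part of the plot at 0.63 to 0.83 log2.

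Among the genes whose products cut ligands from the cell surface or carry the protease there, Frmd8, Rhbdf1, Adam17 and Adam10 rose, by 0.58 to 1.02 log2. Each gene of the lists that follow is its brightest probe set, and over all 14217 genes 6.59% were higher and 1.35% lower with a median difference of 0.01 log2, and at an unadjusted p under 0.05 under all 3 scalings 10.3% were higher and 1.90% lower. Of 6 genes of ligand shedding with a probe set, 4 rose and 0 fell, with a median of 0.63 log2. Adam17, the protease that cuts most EGF-family precursors, read 9.63 and 9.70 log2 with conditioned medium, against 9.09 and 9.07 log2 with EGF alone (0.58 ± 0.08 SE, limma adjusted p = 7.31e-04). Rhbdf1, the inactive rhomboid iRhom1 that carries Adam17 to the cell surface, read 8.49 and 8.55 log2 with conditioned medium, against 7.42 and 7.63 log2 with EGF alone (0.99 ± 0.12 SE, limma adjusted p = 3.19e-04). Frmd8, which binds iRhoms and stabilises the complex, read 10.74 and 10.63 log2 with conditioned medium, against 9.62 and 9.70 log2 with EGF alone (1.02 ± 0.08 SE, limma adjusted p = 2.44e-05). The groups of these 3 genes are far apart compared with their replicates.

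Adam10, the protease that frees EGF and betacellulin in the mouse, read 7.59 and 7.79 log2 with conditioned medium, against 7.12 and 6.90 log2 with EGF alone (0.68 ± 0.15 SE, limma adjusted p = 0.0107). Its other, dim probe set differed by 0.21 log2. The related iRhom2, Rhbdf2, differed by 0.26 ± 0.13 log2 (SE) and the dim Adam9 by -0.52 ± 0.27 log2 (SE), and neither passed. The count of 4 was 2 without the intensity trend, where 1.80% of all probe sets were higher. With dim probe sets left out and 1 probe set per gene it was 2 without EGF replicate 2 and 2 without EGF+ECCM replicate 2.

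Of the other EGF-family ligands, 4 of 6 had a probe set and 0 passed (1 higher and 0 lower at an unadjusted limma p under 0.05). Egf itself, the transcript of the cells and not the protein in the medium, read 5.04 and 5.70 log2 with conditioned medium, against 5.89 and 6.20 log2 with EGF alone (-0.68 ± 0.28 SE, limma adjusted p = 0.133), and differed by 0.03 log2 as deposited. The neuregulins, ligands of Erbb3 and Erbb4, differed by 0.66 log2 (Nrg4, dim), 0.41 log2 (Nrg1, dim) and -0.28 log2 (Nrg2). All 7 other Nrg1 probe sets were dim too, and their differences ran between 0.14 and 0.69 log2.

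Among 16 measured receptor adaptors and transducers 3 rose and 0 fell, with a median of 0.11 log2. Shc1, the adaptor that links phosphorylated receptors to Ras, read 9.33 and 9.28 log2 with conditioned medium, against 8.26 and 8.13 log2 with EGF alone (1.11 ± 0.09 SE, limma adjusted p = 4.65e-05). Map2k1, the kinase MEK1 that activates ERK, rose by 0.59 ± 0.08 log2 (SE) and the transcription factor Stat3 by 0.68 ± 0.14 log2 (SE). A further Stat3 probe set differed by -0.06 log2. Araf, a Raf kinase, differed by -0.45 ± 0.10 log2 (SE) and did not pass under all 3 scalings. Its other probe set differed by -0.16 log2, and by 0.24 log2 as deposited, and was not called. The count of 3 higher and 0 lower was 6 and 2 on quantile normalized values alone, 9 and 0 on deposited, 3 and 7 on median-centred values, and 1 and 0 without the intensity trend. Over all probe sets the shares higher and lower were 8.20% and 8.17% on quantile normalized and 31.2% and 0.989% on deposited values. They were 6.26% and 16.8% on median-centred values and 1.80% and 0.296% without the trend.

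Of 15 measured genes of receptor down-regulation 0 passed (4 higher and 0 lower at an unadjusted limma p under 0.05), with a median of -0.02 log2. Single scalings called 2 higher and 0 lower on quantile normalized, 6 and 0 on deposited and 0 and 4 on median-centred values. Over all probe sets these shares were 8.20% and 8.17%, 31.2% and 0.989%, and 6.26% and 16.8%, in the same order. The nearest to the threshold were Sh3kbp1, the Cbl-binding adaptor of receptor endocytosis (0.58 ± 0.10 SE, largest adjusted p over the 3 scalings 0.0522), and Lrig1, a membrane protein that promotes receptor degradation (0.47 ± 0.09 SE, 0.0923). A second Sh3kbp1 probe set, at 0.59 log2, was called. Socs5, a suppressor of cytokine signalling, differed by 0.18 ± 0.07 log2 (SE) and did not pass. A second Socs5 probe set, not dim, went the other way at -0.24 ± 0.09 log2 (SE) and was not called. Lrig3, a relative of Lrig1, differed by 0.55 ± 0.22 log2 (SE) and did not pass, and its other, dim probe set differed by 0.08 log2.

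Of 20 genes that EGF receptor signalling is known to induce, 7 rose and 0 fell, with a median of 0.54 log2. The 4 with the smallest p were the zinc finger factors Egr2 (1.74 ± 0.11 SE) and Egr1 (0.98 ± 0.08 SE), the ERK pathway inhibitor Spry4 (0.96 ± 0.08 SE) and the ERK phosphatase Dusp6 (0.86 ± 0.07 SE). Dusp6 read 12.13 and 12.01 log2 with conditioned medium, against 11.19 and 11.23 log2 with EGF alone. The other 3 were the ETS factors Etv4 (1.47 log2) and Etv5 (0.86 log2) and Fos (0.91 log2). Many other stimuli induce these genes too. The count of 7 higher and 0 lower was 4 and 0 without the intensity trend, 11 and 1 on quantile normalized, 15 and 0 on deposited and 8 and 2 on median-centred values alone. Over all probe sets these shares were 1.80% and 0.296%, 8.20% and 8.17%, 31.2% and 0.989%, and 6.26% and 16.8%, in the same order.

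**Figure D4:**
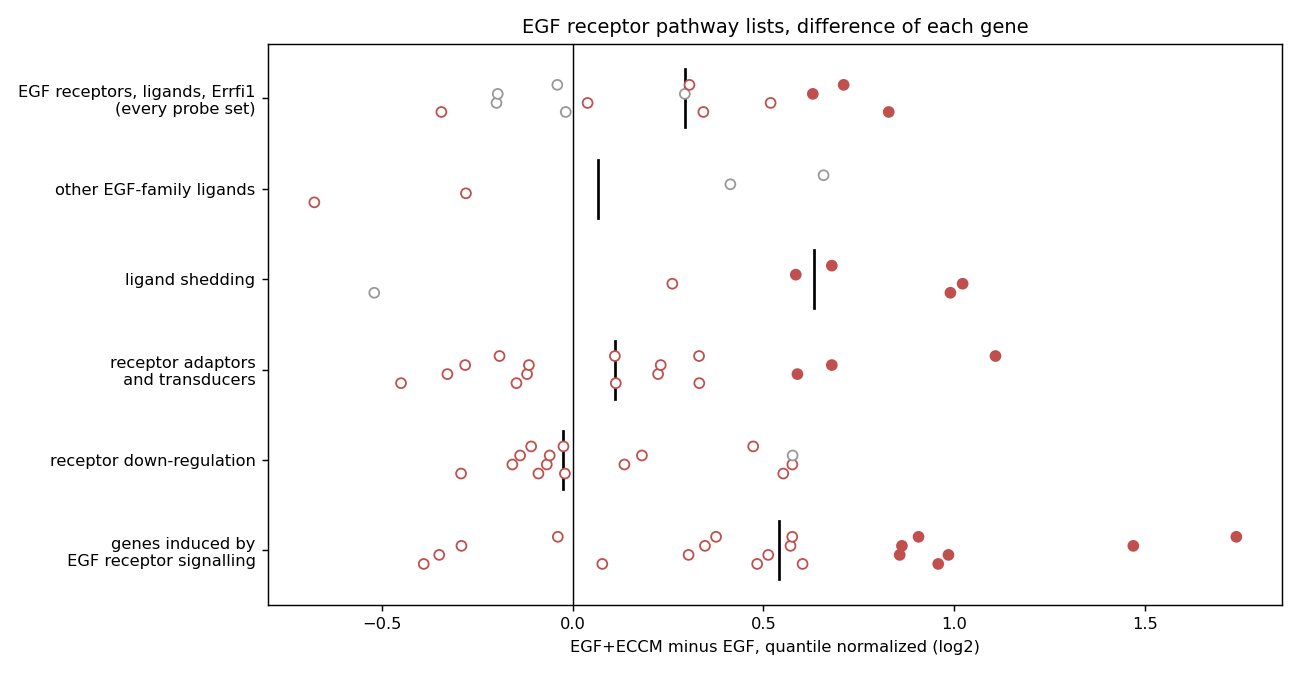
Quantile normalized difference between conditioned medium and EGF alone (log2) for the 13 probe sets described here and for each gene of 5 lists of the EGF receptor pathway. Filled points were called under all 3 scalings, grey outlines are dim probe sets and the black bar is the list median (0.29, 0.07, 0.63, 0.11, -0.02 and 0.54 log2 from top to bottom). The shedding genes and the induced genes hold most of the filled points.

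The probe sets of other genes whose pattern over the 4 arrays was nearest, by Euclidean distance between profiles centred on their own means, were those of Ggh, Mix23 and Yipf3 for the brightest Egfr probe set (0.027 to 0.030 log2) and those of Faslg, Cercam and Il4r for Errfi1 (0.033 to 0.044 log2). Of these 6, Il4r, a subunit of the interleukin-4 receptor, was called (0.63 log2 higher).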

How the data were processed

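Total RNA of 4 neurosphere samples was hybridized to an Affymetrix rat array. The series description says that RMA was run in GenePattern, and the values the authors deposited are on a log2 scale. Version and options of RMA are not given in the sources used here. Array medians differed, so the values were quantile normalized, and the deposited and median-centred values were used beside them. Of 31099 rows, 57 array controls were left out. Genes were named from GEO's platform annotation (20832 probe sets with 1 symbol, 436 with several, 9831 with none). All 13 probe sets matched RefSeq's table of GRCr8 by gene identifier with the same symbol.

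Conditioned medium minus EGF was fitted in R 4.3.3 by limma 3.58.1 with eBayes and an intensity trend, two-sided, with no block and no filter, and p-values were adjusted over 31042 probe sets. A call needed an adjusted p under 0.05 in 1 direction under all 3 scalings. On deposited values the prior degrees of freedom were infinite, against 8.31 after quantile normalization and 10.8 after median centring. With 2 arrays per group the number of arrays limits the precision. A further embryo pool served both conditions, but no label ties replicate numbers to pools. The p-values rest on the spread between these samples, pooled over probe sets of like brightness. On deposited values, with infinite prior degrees of freedom, a probe set's own spread carries no weight. The correlation of same-numbered deviations was -0.02 on quantile normalized and -0.09 on deposited values. The procedure was run on simulated, independent probe sets whose spread followed the intensity trend, on arrays of equal level. Such data cannot test the scaling of the arrays or the trend, on which the calls depend.

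The genes and lists were chosen with earlier results of these data known. Named were all 13 probe sets, the 4 smallest p per list, and 3 nearest patterns for 2 probe sets. Rhbdf2, Adam9, Etv4, Etv5, Fos and further probe sets of list genes were chosen after their values were seen. Alternatives were single scalings, a replicate block, leaving out arrays, dim probe sets left out, 1 probe set per gene, and no intensity trend.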

Additional observations from a re-analysis of the deposited data

How the results depend on the processing

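Erbb2 and Errfi1 kept their sign under every alternative, and Egfr 1370830_at under every one that included it, which those with 1 probe set per gene did not. These 3 also passed under the replicate block and with dim probe sets left out. The count of 3 higher members was 6 on deposited values alone and 0 without the intensity trend. Over all probe sets, 1527 higher and 306 lower became 2544 and 2535 on quantile normalized values alone, 9688 higher on deposited values alone, 5213 lower on median-centred values alone, and 558 and 92 without the intensity trend. The fit with 1 probe set per gene tested only 14217, of which 1050 were higher and 202 lower. With the replicate number as a block 1429 of all 31042 probe sets were higher and 45 lower. With crossed numbers, added after seeing the data, 1839 were higher and 723 lower. The samples share only a number, and the block changed none of the 3 calls. Leaving out 1 array gave 0 higher, 0 lower and 0 members. With dim probe sets left out and 1 probe set per gene (added after seeing the data, 2 members called with all arrays), leaving out EGF replicate 1 gave 904 higher, 72 lower and 1 member, EGF replicate 2 706, 43 and 2, EGF+ECCM replicate 1 621, 104 and 1, and EGF+ECCM replicate 2 547, 58 and 0. The fits with dim probe sets left out and 1 probe set per gene tested 11496 genes, and only 6 of these were members. With all arrays, 1048 of the 11496 were higher and 205 lower. The cause of the moves between fits was not tested, other than fewer features with 1 probe set per gene. Probe sets that were not called turned sign on deposited values (Erbb3 0.76, Ereg 0.53, Areg 0.36, Egfr 1385413_at 0.67, Tgfa 1387450_at 0.27, Egf 0.0304 and Nrg2 0.27 log2), on median-centred values (Erbb3 0.20, Tgfa 1381449_s_at -0.0645, Egfr 1385413_at 0.10 and Socs5 -0.0666 log2), and without an array (ranges of Erbb4 -0.105 to 0.692, Tgfa 1381449_s_at -0.114 to 0.194, and -0.115 and -0.072 without EGF replicate 1 and EGF+ECCM replicate 2 in the fits of 1 probe set per gene, Egfr 1385413_at -0.127 to 0.0599, Erbb3 -0.223 to 0.175 and Ereg -0.492 to 0.0833 log2). Dim signals limit what can be said of Areg, Ereg, Erbb3 and Erbb4. Fits with 3 arrays have 1 residual degree of freedom. No fit was left out.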

Other observations

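Several genes of the pathway lists had further probe sets that gave another size of change than the brightest or, for Socs5 and Stat3, another sign. Dusp6, at 0.86 log2 by its brightest probe set, was also called by a further one at 0.67 log2, and another one differed by 0.14 log2. Etv5 differed by 0.06 log2 by its other probe set, against 0.86 log2, and Fos by 0.44 log2 by a dim one, against 0.91 log2. The other Etv4 probe set differed by 0.66 log2 (limma adjusted p = 0.0608) and a dim Egr2 probe set by 0.71 log2 (limma adjusted p = 0.0794), and neither was called. Where on their transcripts these probe sets lie was not analysed here.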
